A study of Mus musculus with 96 samples.

Results

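The genes described here are 37 mouse genes whose symbol carries the CD antigen name, from Cd5 to Cd320, measured in single haematopoietic precursor cells of mid-gestation embryos. They were taken from 19836 genes in the table, of which 58 had a symbol made of Cd and a number. Of these 58, 17 had reads in fewer than 5 of all 96 cells, and 4 (Cd27, Cd34, Cd44 and Cd48) were left out by name. The members were thus chosen by their own read counts over all cells, and the question put to them was which surface genes mark a stage or a site. Just inside the threshold were Cd96, Cd101 and Cd244, each with reads in 5 cells, and just outside were Cd28 with reads in 4 cells and Cd180 with reads in 3.

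CD antigens are cell surface molecules grouped by the antibodies that bind them, so the names cover proteins of unrelated function. They include tetraspanins, which organise other receptors in the membrane, inhibitors of complement, adhesion molecules, and receptors of lymphocytes and myeloid cells. Haematopoietic stem cells (HSCs) are isolated by combinations of such antigens. Their embryonic precursors (pre-HSCs) arise from endothelium of the aorta and other vessels and later colonise the fetal liver, and some surface markers of HSCs change along that path.

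All cells came from C57BL/6 embryos and were sorted 1 per well. The study holds 48 pre-HSCs from the aorta-gonad-mesonephros region (AGM) and 16 pre-HSCs from the yolk sac, both at E11.5 and both gated as Ter119-CD11b-CD144+c-kit+EPCR+. It also holds 16 HSCs from E12.5 fetal liver, gated as Ter119-Sca-1+c-kit+EPCR+, and 16 HSCs from E14.5 fetal liver, gated as Ter119-Sca-1+c-kit+CD48-CD150+. Tissue, age and gate change together between the E11.5 groups and the livers, and the gate changes with age between the livers, so their parts in a difference cannot be told apart. The labels name no animal, litter or pool. Each group therefore counts as 1 sample, cells are not replicates, and no test or p-value is given for any difference.

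Cells held 250235 to 1926882 reads, and the median number of genes with a read was 5522 for AGM, 5350 for yolk sac, 4036 for E12.5 and 4839 for E14.5 cells. Of these cells, 9 stood apart with over 8500 genes, from 8948 upwards, where the next cell had 7972. They were AGM cells 1, 5, 7, 8 and 36, yolk sac cells 1, 2 and 3, and E12.5 cell 1. AGM cells 1 to 16 had a median of 6572 genes and AGM cells 17 to 48 a median of 5148, and the labels name no batch for them. E12.5 cell 8 had 1011 genes, and E14.5 cells 3, 8, 13 and 16 had over 1% globin reads. The sort markers were partly visible as RNA. Cdh5, which encodes CD144, had reads in 45 of 48 AGM cells but in 7 of 16 yolk sac cells, and Procr, which encodes EPCR, in 41 AGM cells and 6 yolk sac cells. Slamf1, which encodes CD150, had reads in 4 of 16 E14.5 cells, and Cd48 in 6 of these 16 cells, which were sorted as lacking the CD48 protein.

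A gene counts as detected in a cell with 1 read or more. Intervals of shares are exact Clopper-Pearson 95% intervals. Levels are the pooled reads of a group's cells expressed as CPM, with exact Poisson 95% intervals. Intervals of a difference in shares are Newcombe 95% intervals. All these intervals cover counting error only, and those of shares and share differences take cells as independent draws. None of them is a test of a difference between groups. A gene was called between groups when its shares differed by 25 percentage points or more. It was said to mark a group when its share there lay at least 25 points above each of the 3 other groups, and to mark a stage when both groups of that stage lay at least 25 points above both groups of the other. The same rules were applied to all 12863 genes with reads in 5 or more cells, and the percentage of those genes that passed is given with the counts of members. Of 1348 detections of a member in a cell, 87 (6.45%) rested on 1 to 3 reads.

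Among the 37 genes, 1 marked a single E11.5 site, 1 marked a liver age, and 1 marked the E11.5 stage. Cd69, an early activation antigen of lymphocytes that also limits cell exit from tissues, marked the yolk sac, as did 2.15% of all genes. Cd82, a tetraspanin, marked E14.5 liver, as did 0.381% of all genes. Cd38, an ectoenzyme that consumes NAD, marked the E11.5 stage, as did 3.94% of all genes, with a margin of exactly 25 points. No member marked AGM, E12.5 liver or the liver stage, which 0.746%, 0.132% and 0.109% of all genes did. These counts are a description, since the rule was set to find such genes.

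**Figure D1:**
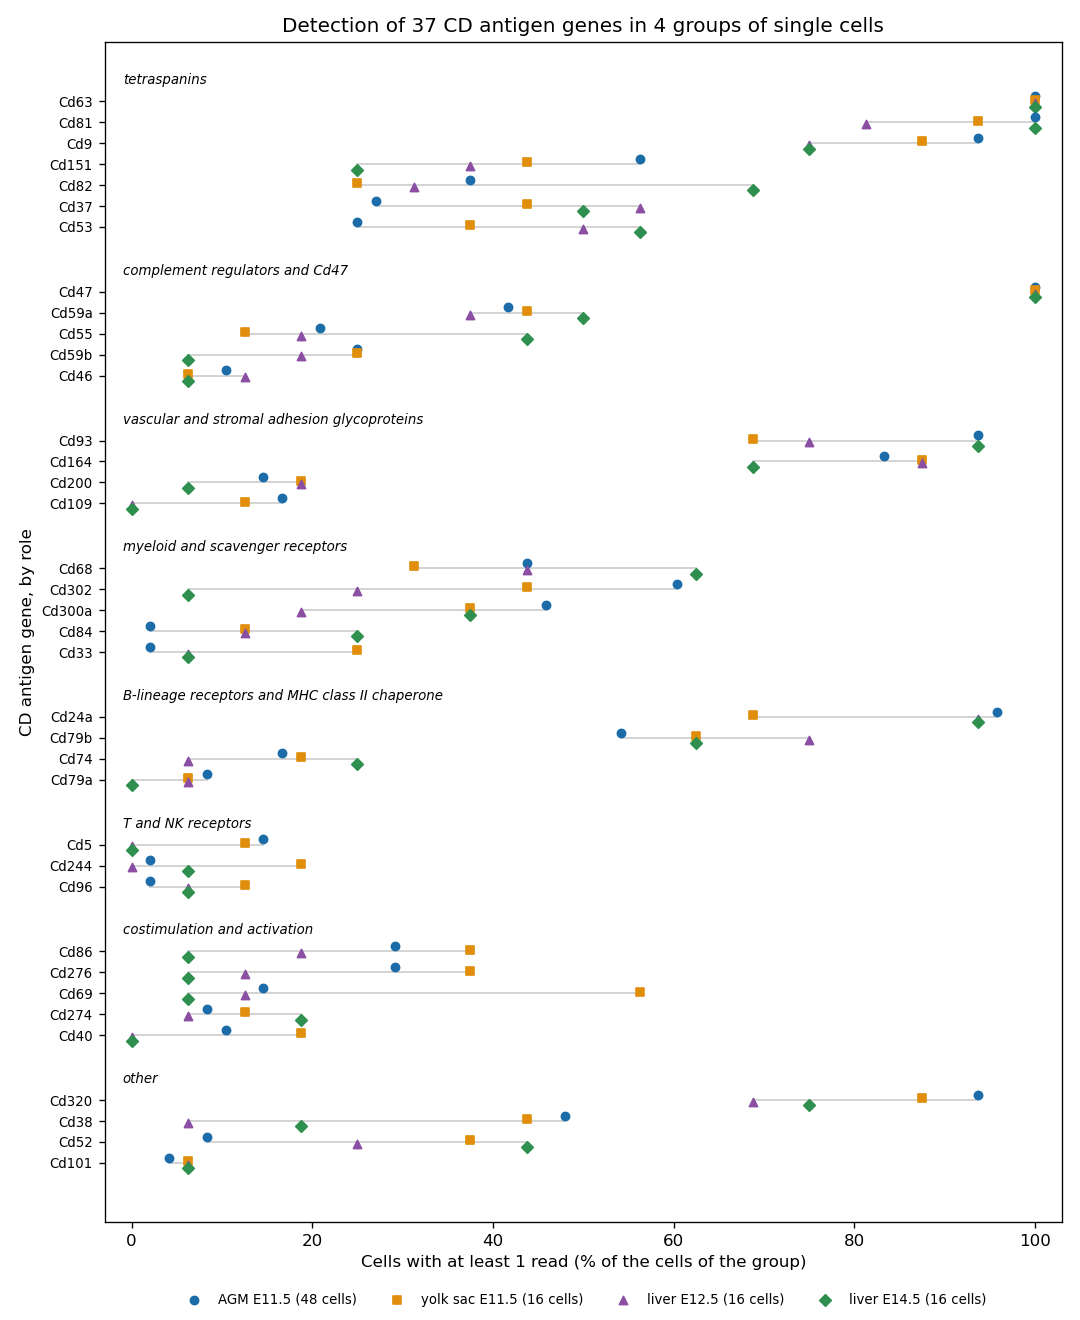
Share of cells with at least 1 read (x axis, % of the cells of a group) for the 37 genes (y axis), ordered by role, with 1 marker per group, set slightly apart in height. Cd69 stands to the right only in yolk sac (56.2%) and Cd82 only in E14.5 liver (68.8%), while Cd47 and Cd63 are at 100% in all groups.

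In both livers, Cd53, a tetraspanin, was called higher than in AGM, and Cd38 and Cd302, a C-type lectin receptor, were called lower. Cd52, described further on, was called higher in E14.5 liver. Cd37, a tetraspanin of leukocytes, was called higher in E12.5 liver and had a share close to that in E14.5 liver. The 250 bases before the RefSeq start of these 4 genes are shown because blood genes are commonly driven by ETS, RUNX and GATA factors. Capitals mark every match, on either strand, to GAGGAA (an ETS core with the flank that PU.1 prefers, TTCCTC on the other strand), TGTGGT (RUNX, ACCACA on the other strand) or AGATAA (bound by GATA factors, with TTATCT on the other strand). No marked match overlaps another, and sequences are from RefSeq, build GRCm38.p6, read 5′ to 3′ on the gene's own strand. They lie at chr7:45238840-45239089 (Cd37, minus strand), chr3:106790150-106790399 (Cd53, minus strand), chr5:43868559-43868808 (Cd38, plus strand) and chr2:60284485-60284734 (Cd302, minus strand). The RefSeq starts differ from the GENCODE gene bounds given for these genes here. By GENCODE the windows of Cd37 and Cd38 lie inside the gene, that of Cd302 overlaps its first bases, and that of Cd53 lies before it.
Cd37: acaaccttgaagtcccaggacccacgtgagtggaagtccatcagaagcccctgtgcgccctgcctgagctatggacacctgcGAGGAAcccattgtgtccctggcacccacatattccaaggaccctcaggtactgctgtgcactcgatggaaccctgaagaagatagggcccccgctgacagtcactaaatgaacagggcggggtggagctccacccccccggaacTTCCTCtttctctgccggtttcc
Cd53: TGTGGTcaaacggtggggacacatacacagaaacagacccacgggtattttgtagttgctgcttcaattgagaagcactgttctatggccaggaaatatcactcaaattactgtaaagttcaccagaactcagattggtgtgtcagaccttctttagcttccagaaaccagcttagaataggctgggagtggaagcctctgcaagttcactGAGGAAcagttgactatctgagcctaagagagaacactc
Cd38: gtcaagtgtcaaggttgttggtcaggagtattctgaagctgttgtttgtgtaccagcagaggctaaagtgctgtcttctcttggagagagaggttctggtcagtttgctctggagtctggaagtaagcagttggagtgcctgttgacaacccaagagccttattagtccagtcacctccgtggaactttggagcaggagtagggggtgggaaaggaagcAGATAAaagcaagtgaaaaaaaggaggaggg
Cd302: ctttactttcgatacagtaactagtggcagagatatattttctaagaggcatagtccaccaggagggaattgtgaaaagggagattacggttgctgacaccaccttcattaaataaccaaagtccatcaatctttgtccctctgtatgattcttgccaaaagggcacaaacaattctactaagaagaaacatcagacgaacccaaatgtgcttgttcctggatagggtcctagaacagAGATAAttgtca
In Cd37 the ETS letters begin at -168 and, on the opposite strand, at -23, counted back from the RefSeq start for all 4 genes. Cd53 has the RUNX letters at -250 and the ETS letters at -39. Cd38 and Cd302 each have the GATA letters, at -31 and -12. Of the 37 genes, 27 matched a promoter in the table, with 33 promoters in all. GAGGAA was found in 42.4% of the members' promoters and 23.2% of all 32851 promoters, TGTGGT in 24.2% and 14%, and AGATAA in 15.2% and 9.99%. Besides Cd38 and Cd302, the members with AGATAA were Cd101, Cd200 and Cd274. GAGGAA was in 14 members. They include Cd37, Cd53 and Cd82, but also Cd300a and Cd320, which were called lower in E12.5 liver than in AGM. The 4 windows shown do not stand for all members, and letters were not compared with the direction of a call. A match describes the letters and does not show binding, and a window without a match says nothing about the factor.

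Tetraspanins were 7 of the 37 genes. Cd63, a tetraspanin of late endosomes and secreted vesicles, had reads in all 96 cells. Its pooled level was 553.9 CPM for AGM, 482.8 for yolk sac, 600.8 for E12.5 and 309.1 for E14.5 cells. Cd81, a partner of the B cell co-receptor, was found in all AGM and E14.5 cells, in 15 of 16 yolk sac cells and in 13 of 16 E12.5 cells. Cd9, a tetraspanin of platelets and stem cells, was found in 45 of 48 AGM cells, in 14 of 16 yolk sac cells and in 12 of 16 cells at each liver age. These broadly detected genes thus showed no called difference in share.

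Cd82 set the E14.5 liver apart by share. It lies on chromosome 2 (93419111 to 93463140, minus strand; mm10 with GENCODE vM21 here and for all genes below). Reads were found in 11 of 16 E14.5 cells (68.8%, interval 41.3 to 89%), against 5 of 16 E12.5 cells (31.2%, 11 to 58.7%), 4 of 16 yolk sac cells (25%) and 18 of 48 AGM cells (37.5%, 23.9 to 52.6%). Per cell, the lowest, median and highest values were 0, 33.1 and 179.9 CPM in E14.5 liver and 0, 0 and 337.7 CPM in E12.5 liver. More E14.5 cells held the transcript, but the highest single cells were in E12.5 liver, and the groups overlapped. The share difference of 37.5 points has a Newcombe 95% interval of 3.07 to 61.7. The pooled level barely differed, 57.03 against 51.75 CPM, a log2 ratio of 0.14, which became -0.06 without E14.5 cell 12 and 0.66 without E12.5 cell 7. Against AGM the difference was 31.2 points, and it fell to 18.8 points when only AGM cells 1 to 16 were used. Without the cells with over 8500 genes, Cd82 remained in 11 of 16 E14.5 cells and was in 4 of 15 E12.5, 1 of 13 yolk sac and 14 of 43 AGM cells.

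Cd37 and Cd53, both tetraspanins largely restricted to leukocytes, had their lowest shares in AGM. Cd53 (chromosome 3, 106759921 to 106790149, minus strand) had reads in 12 of 48 AGM cells (25%) and 6 of 16 yolk sac cells (37.5%), and among liver cells in 8 of 16 at E12.5 (50%) and 9 of 16 at E14.5 (56.2%). Its pooled level was 16.16 CPM for AGM (interval 15.2 to 17.2), 13.85 for yolk sac, 79.57 for E12.5 and 71.41 for E14.5 cells (67.8 to 75.2). Both livers were therefore higher than both E11.5 groups by pooled level. Per cell, the median and highest values were 0 and 400.3 CPM in AGM and 64.9 and 255 CPM in E14.5 liver, with a lowest value of 0 in both, so single AGM cells reached the liver range. AGM cell 40 held 45.7% of the AGM reads, and without it the AGM level was 8.94 CPM. The E12.5 call sits exactly at 25 points, ended on omission of any 1 of 44 cells, and was 6.25 points against AGM cells 1 to 16. The E14.5 difference of 31.2 points (4.37 to 54.2) was not called against those 16 cells.

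Cd37 (chromosome 7, 45233632 to 45239115, minus strand) had reads in 13 of 48 AGM cells (27.1%) and 7 of 16 yolk sac cells (43.8%), and among liver cells in 9 of 16 at E12.5 (56.2%) and 8 of 16 at E14.5 (50%). The pooled level was 13.29, 28.33, 74.27 and 145.1 CPM in that order. In E14.5 liver, cell 10 held 48.9% of these reads, and the level without it was 79.25 CPM. Per cell, the lowest, median and highest values were 0, 0 and 107.7 CPM in AGM, and 0, 35.8 and 276.2 CPM in E12.5 liver, so the groups overlapped at low values. The log2 ratio of E12.5 liver over AGM was 2.4, and the share difference was 29.2 points (2.22 to 52.3). Cd37 overlaps Tead2 on the opposite strand, and the counting strand is not given in the sources used here, so reads of the overlap cannot be assigned.

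Cd151, a tetraspanin that binds laminin-binding integrins, went the other way. It was found in 27 of 48 AGM cells (56.2%) and 7 of 16 yolk sac cells (43.8%), with 6 of 16 at E12.5 (37.5%) and 4 of 16 at E14.5 (25%). Its pooled level was 16.66, 4.44, 32.28 and 3.11 CPM in that order, so share and pooled level did not rank the groups alike. E12.5 cell 16 alone held 32.5% of the E12.5 reads. The E14.5 share minus the AGM share was -31.2 points (-51 to -3.05). Of the 7 tetraspanins, 0 were called between yolk sac and AGM, 2 higher in E12.5 liver than AGM, 1 higher in E14.5 than E12.5 liver, and 2 higher and 1 lower in E14.5 liver than AGM. In the same comparisons 3.72% of all genes were higher and 1.75% lower, 0.933% and 17%, 8.72% and 3.95%, and 1.76% and 13.4%. The tetraspanins' median share differences were -6.25, -6.25, 0 and 0 points, where all genes had medians of 0, -10.4, 0 and -8.33.

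**Figure D2:**
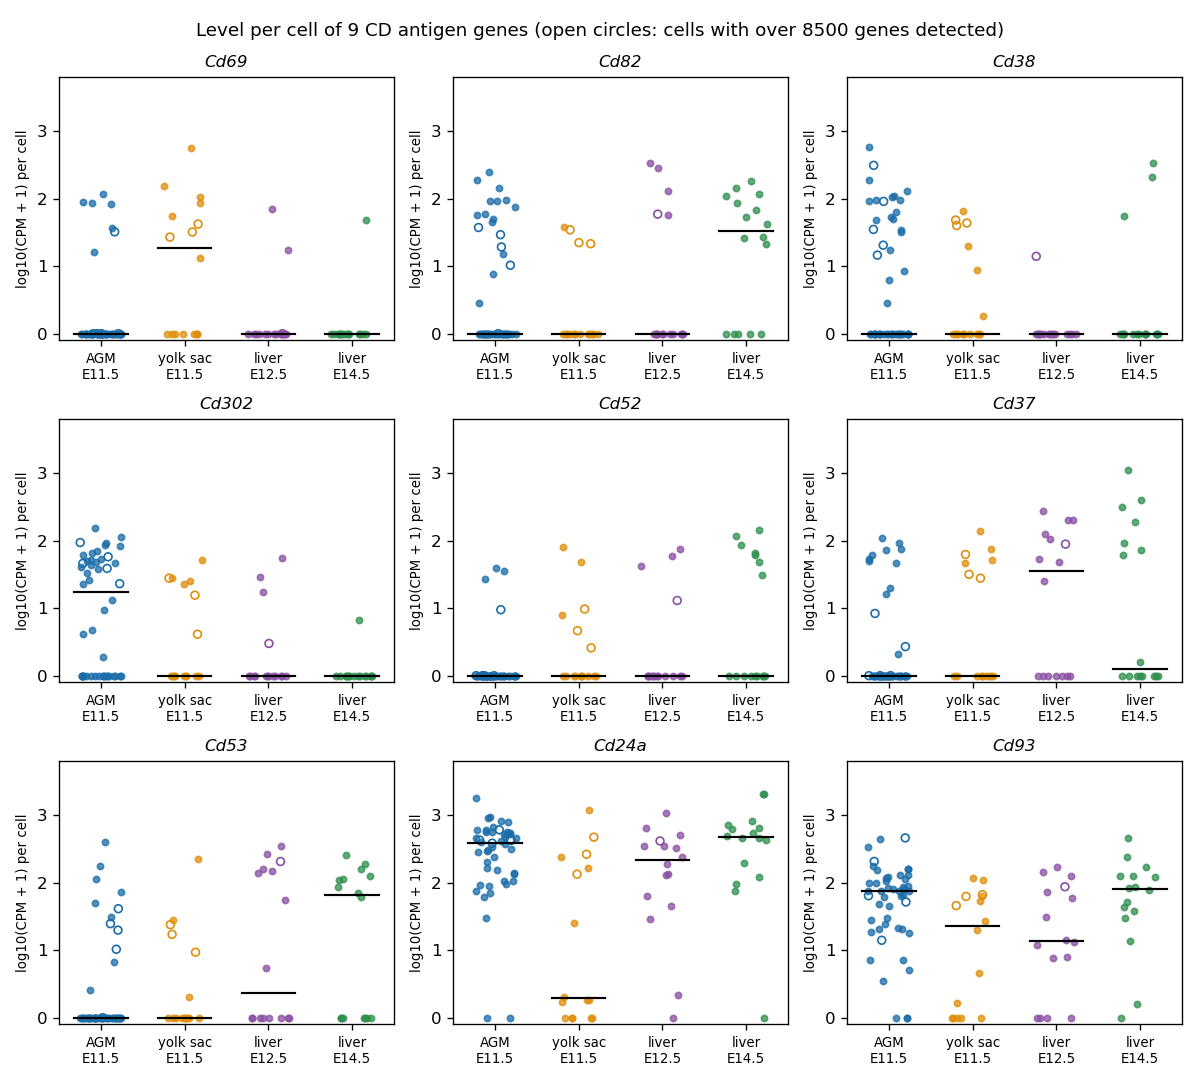
Level per cell (y axis, log10 of CPM + 1) of 9 of the genes in the 4 groups (x axis); each point is a cell, open circles are cells with over 8500 genes, and bars are medians over all cells of the group. Cd69 reaches its highest value, 555.8 CPM, in a yolk sac cell, and Cd302 is above 0 in 1 of 16 E14.5 cells.

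The genes of costimulation and activation were 5. All had a larger share in yolk sac than in AGM, as did 6063 of all 12863 genes, and 1, Cd69, passed 25 points. Cd69 (chromosome 6, 129267325 to 129275436, minus strand) had reads in 9 of 16 yolk sac cells (56.2%, interval 29.9 to 80.2%), 7 of 48 AGM cells (14.6%, 6.07 to 27.8%) and in 2 E12.5 and 1 E14.5 liver cells of 16 each. The difference of yolk sac and AGM was 41.7 points (15.4 to 63.6). The lowest, median and highest cell values were 0, 19 and 555.8 CPM in yolk sac and 0, 0 and 118 CPM in AGM. Yolk sac held the highest values, and 7 of its 16 cells were at 0, as were most AGM cells. Pooled levels were 64.74, 10.09, 7.08 and 3.45 CPM. Yolk sac cell 15 held 54.6% of its group's reads, and without it the level was 31.36 CPM and the log2 ratio over AGM 1.55 in place of 2.57. The call held under all 9 alternatives tried, with differences of 31.2 to 42.3 points, but some of these could not change it. Cd69 had reads in 19 cells, above the limit of 10. The limit of 2000 genes and the removal of globin-rich liver cells left out no yolk sac or AGM cell. Without the cells with over 8500 genes Cd69 was in 6 of 13 yolk sac cells (46.2%) and 6 of 43 AGM cells (14%).

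Cd276 and Cd86, ligands of the B7 family that tune T cell responses, were detected mostly at E11.5. Cd276 had reads in 14 of 48 AGM and 6 of 16 yolk sac cells, and in 2 and 1 of 16 liver cells at E12.5 and E14.5. Its pooled level was 14.22 and 22.55 CPM at E11.5 against 0.367 and 0.486 CPM in the livers. Cd86 had reads in 14, 6, 3 and 1 cells, with 26.59, 22.51, 4.46 and 0.243 CPM. Neither passed 25 points in share in any comparison; their E14.5 shares minus AGM were -22.9 points (-37.8 to 1.72) for each. Cd40, a TNF receptor family member of antigen-presenting cells, was found in 5 AGM and 3 yolk sac cells and in 0 of 16 cells in each liver, which allows a share of up to 18.8% in each by a limit of 3 cells of the group and 20.6% by the exact interval, as does every 0 of 16 given here. Cd274, which encodes the checkpoint ligand PD-L1, was found in 4, 2, 1 and 3 cells.

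Cd38 (chromosome 5, 43868553 to 43912375, plus strand) is used as a surface marker of adult mouse HSCs. Reads were found in 23 of 48 AGM cells (47.9%, interval 33.3 to 62.8%) and 7 of 16 yolk sac cells (43.8%, 19.8 to 70.1%), but in 1 of 16 at E12.5 (6.25%, 0.158 to 30.2%) and 3 of 16 at E14.5 (18.8%, 4.05 to 45.6%). The E12.5 share minus the AGM share was -41.7 points (-56.4 to -15.8), and the E14.5 share minus the AGM share was -29.2 points (-47.5 to -1.43). The only E12.5 cell with Cd38 reads, cell 1, is one of those with over 8500 genes. Pooled levels were 42.62, 15.51, 0.682 and 30.36 CPM. The E14.5 level came from 3 cells at 55.2 to 341 CPM, so few cells carried it at a level within the AGM range, whose highest cell had 585.7 CPM. Without the cells with over 8500 genes the shares were 41.9% for AGM, 30.8% for yolk sac, 0 of 15 E12.5 cells (up to 20% by the limit of 3 cells) and 18.8% for E14.5, and Cd38 then no longer marked the stage, nor was it called between E14.5 liver and AGM. The E14.5 call against AGM also ended, at -22.9 points each, with detection at 10 CPM and without the globin-rich liver cells.

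Myeloid and scavenger receptors were 5 genes with unlike patterns. Cd302 (chromosome 2, 60251993 to 60284488, minus strand) had its highest share in AGM. It was found in 29 of 48 AGM cells (60.4%, interval 45.3 to 74.2%) and 7 of 16 yolk sac cells (43.8%), with 4 of 16 at E12.5 (25%) and 1 of 16 at E14.5 (6.25%). The median AGM cell had 17 CPM and the lowest 0, and the only E14.5 cell with reads had 5.71 CPM. Levels and shares both stood in the order AGM, yolk sac, E12.5 and E14.5 liver, and neighbouring groups in it had overlapping intervals of the share. Pooled levels were 33.33, 11.66, 8.92 and 0.534 CPM. The E14.5 share minus the AGM share was -54.2 points (-67.7 to -28), the largest share difference of any member in the 4 comparisons. It kept its call under all 9 alternatives, but some of these could not end it. Cd302 had reads in 41 cells, enough to pass the stricter cell limit, and no AGM or E14.5 cell had under 2000 genes. Without the cells with over 8500 genes Cd302 also marked AGM.

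Cd300a, an inhibitory receptor of myeloid cells, had reads in 22 of 48 AGM cells, in 6 of 16 cells each of yolk sac and E14.5 liver, and in 3 of 16 at E12.5. The E12.5 share minus the AGM share was -27.1 points (-45.5 to 0.562). Its pooled levels were 43.11, 32.28, 36.63 and 45.71 CPM, and those of yolk sac and E12.5 liver rest largely on single cells. At E12.5, cell 4 gave 61.9% of the reads, and the level was 15.28 CPM with that cell omitted; without yolk sac cell 6 the yolk sac level was 7.59 CPM. With detection at 10 CPM the E12.5 difference was -22.9 points and no longer called. Cd68, a lysosomal glycoprotein of macrophages, was found in 21, 5, 7 and 10 cells, with pooled levels of 26.86, 13.49, 56.95 and 104.3 CPM. Cd84 and Cd33 were found in 9 and 7 of all cells. Cd33, a sialic-acid-binding lectin, had reads in 4 of 16 yolk sac cells and 1 cell in each other group, and yolk sac cell 13 held 84.9% of its yolk sac reads. Of 7 macrophage markers, 6 were seen among AGM cells, 4 among yolk sac, 6 among E12.5 and 5 among E14.5 cells. These markers had a median of only 1 detected per cell in each group. Their summed level per cell had a median of 481.5 CPM for AGM (0 to 6303), 327.6 for yolk sac (0 to 835.5), 711.3 for E12.5 (0 to 24897, the highest in cell 8) and 454.2 for E14.5 (0 to 2042). Adgre1, which encodes F4/80, was at 0 in AGM and E12.5 liver, C1qa, C1qb and C1qc were at 0 in yolk sac, and Csf1r and Mrc1 at 0 in E14.5 liver. The part of such cells in these values was not tested.

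Among vascular and stromal adhesion glycoproteins, Cd93, a C-type lectin of endothelium and early haematopoietic cells, was the 1 gene called. It was found in 45 of 48 AGM cells (93.8%) and 11 of 16 yolk sac cells (68.8%), with 12 of 16 at E12.5 (75%) and 15 of 16 at E14.5 (93.8%). Its yolk sac share was exactly 25 points below AGM, and omission of any 1 of 50 cells ended the call. Pooled levels were 84.59, 35.19, 53.48 and 84.38 CPM, so AGM and E14.5 liver were level and yolk sac lowest. Cd164, a sialomucin of haematopoietic progenitors, had reads in 40, 14, 14 and 11 cells. Cd200, an immunoglobulin family ligand that restrains myeloid cells, had reads in 7, 3, 3 and 1, and E14.5 cell 12 held all its reads there. Cd109, a GPI-anchored protein, was found in 8 AGM and 2 yolk sac cells and in 0 of 16 in each liver. All 8 endothelial markers had reads in AGM and yolk sac, 7 in E12.5 liver with Kdr at 0, and 6 in E14.5 liver with Cldn5 and Sox17 at 0. Their summed level per cell had a median of 817 CPM for AGM (39 to 8285), 365.7 for yolk sac (0 to 1173), 697.2 for E12.5 (0 to 2125) and 287.4 for E14.5 (0 to 1236). In E12.5 liver the sum rests largely on Esam, with 422.1 of the 697.1 CPM of the pooled cells. The median number of these 8 markers detected per cell was 5.5, 3.5, 2 and 2.5 in that order. Endothelial markers differ between the groups beside Cd93, Cd38 and Cd302, and their part in the values of these genes was not tested. In AGM, 22 of the 23 cells with Cd38 also had Cdh5 reads, as did 28 of the 29 with Cd302, where 45 of 48 AGM cells had them.

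Cd24a and Cd52 encode short GPI-anchored glycoproteins. Cd24a, high on B cell and erythroid precursors, was found in 46 of 48 AGM cells (95.8%), but 11 of 16 yolk sac cells (68.8%), and in 15 of 16 cells (93.8%) in each liver. Per cell, the lowest, median and highest values were 0, 388.7 and 1805 CPM in AGM, 0, 0.937 and 1205 in yolk sac and 0, 482.3 and 2093 CPM in E14.5 liver. The typical yolk sac cell thus held next to none, and 4 of the 11 yolk sac cells counted had only 1 to 3 reads. The yolk sac share minus the AGM share was -27.1 points (-51.6 to -7.38), and omission of any 1 of 5 cells ended the call. With a threshold of 10 CPM in place of 1 read the difference was -52.1 points. The pooled yolk sac level of 193.9 CPM came to 52.5% from cell 6 and was 100.6 CPM without it, against 409.2 CPM in AGM, a log2 ratio of -1.07 that became -2.01.

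Cd52 (chromosome 4, 134082448 to 134095082, minus strand), a glycoprotein of lymphocytes and other leukocytes, was rare in AGM. It had reads in 4 of 48 AGM cells (8.33%, interval 2.32 to 20%) and 6 of 16 yolk sac cells (37.5%), with 4 of 16 at E12.5 (25%) and 7 of 16 at E14.5 (43.8%, 19.8 to 70.1%). Pooled levels were 2.49, 7.8, 12.44 and 35.27 CPM, lowest in AGM and highest in E14.5 liver. The E14.5 share was 35.4 points above AGM (11.9 to 59), a call that held under all 9 alternatives. The limits of 10 cells and 2000 genes could not end it. Cd52 had reads in 21 cells, and no AGM or E14.5 cell had under 2000 genes. The yolk sac share was 29.2 points above AGM, but 16.1 points, and not called, without the cells with over 8500 genes, which left 3 of 13 yolk sac and 3 of 43 AGM cells. That call also ended with detection at 10 CPM, where the difference was 6.25 points, and without the deepest cell of each group, at 24.8 points. Yolk sac cell 9 held 56.9% of the yolk sac reads, and the log2 ratio of 1.34 over AGM was 0.39 without it. All 6 yolk sac cells with Cd52 also had reads of Cd69 and of Ptprc, the gene of CD45, which were found in 9 yolk sac cells each. Yolk sac cells 1, 2 and 3, with over 8500 genes, were among these 6 and held 32, 29 and 25 of the 37 genes. Joint detection there cannot be read as particular to these genes. In E14.5 liver 1 of the 7 cells with Cd52 had Cd53, against 9 of 16 of all E14.5 cells. The other groups went the other way. Cd53 was in 2 of the 4 AGM cells with Cd52, against 12 of all 48. It was in 4 of 6 such yolk sac cells, against 6 of all 16, and 3 of 4 at E12.5, against 8 of all 16. Cd52 overlaps Crybg2 on the opposite strand, so reads of the overlap cannot be assigned.

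Lymphocyte receptors were found in few cells, except Cd79b. Cd79b, a signalling chain of the B cell receptor, had reads in 26 of 48 AGM cells, in 10 of 16 cells each of yolk sac and E14.5 liver, and in 12 of 16 at E12.5. In the order AGM, yolk sac, E12.5, E14.5 its pooled levels were 53.33, 78.95, 197.1 and 78.7 CPM, and its partner chain Cd79a was in 4, 1, 1 and 0 cells. Reads of the pair were thus mostly those of Cd79b. Cd74, the chaperone of MHC class II molecules, had reads in 8, 3, 1 and 4 cells. Cd5, a T and B-1 cell receptor, was in 7 AGM and 2 yolk sac cells and in 0 of 16 in each liver. Cd244 and Cd96, receptors of NK cells, were each in 5 cells, and Cd244 was in 0 of 16 E12.5 cells. Cd244 and Cd84, both of the SLAM family, lie 229.9 kb apart on chromosome 1, with no other of the 37 genes between them.

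Cd47, the signal that keeps macrophages from engulfing a cell, had reads in all 96 cells. Its pooled level was 373.8 CPM for AGM (interval 368.9 to 378.7), 540.1 for yolk sac, 546.6 for E12.5 and 562.1 for E14.5 (551.9 to 572.4). The lowest, median and highest cell values were 10.7, 382.6 and 842.3 CPM in AGM and 138.2, 618.7 and 1028 CPM in E14.5 liver, so the groups overlapped. Of the complement regulators, Cd55, which speeds decay of the C3 convertase, was found in 10 of 48 AGM cells (20.8%) and 2 of 16 yolk sac cells, with 3 of 16 at E12.5 (18.8%) and 7 of 16 at E14.5 (43.8%). Its E14.5 share was exactly 25 points above E12.5 (interval -6.86 to 51.1), omission of any 1 of 20 cells ended that call, and it was 14.6 points without the 4 liver cells with over 1% globin reads. E12.5 cell 4 held 86.1% of the E12.5 reads. Cd59a and Cd59b, inhibitors of the membrane attack complex, are near copies 4.6 kb apart on chromosome 2, so reads may be split between them. They were found in 20, 7, 6 and 8 cells and in 12, 4, 3 and 1 cells. Cd46, a complement cofactor, was found in 9 of all cells. Cd320, the receptor for transcobalamin-bound vitamin B12, was in 45 of 48 AGM cells (93.8%) and 14 of 16 yolk sac cells, with 11 of 16 at E12.5 (68.8%) and 12 of 16 at E14.5. Its E12.5 share was exactly 25 points below AGM, and omission of any 1 of 50 cells ended that call. Cd101, an inhibitory immunoglobulin family receptor, was in 5 cells.

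Counts over the 37 genes are set beside those over all genes. In yolk sac against AGM, 2 members were called higher (Cd69, Cd52) and 2 lower (Cd24a, Cd93), 5.41% each, where 3.72% and 1.75% of all genes were. In E12.5 liver against AGM, 2 were higher (Cd37, Cd53; 5.41%) and 4 lower (Cd38, Cd302, Cd300a, Cd320; 10.8%), where 0.933% and 17% of all genes were. In E14.5 against E12.5 liver, 2 were higher (Cd82, Cd55; 5.41%) and 0 lower, where 8.72% and 3.95% were. In E14.5 liver against AGM, 3 were higher (Cd52, Cd53, Cd82) and 3 lower (Cd302, Cd151, Cd38), 8.11% each, where 1.76% and 13.4% were. AGM serves in 3 of the 4 comparisons, so their values are not independent. Most of the 37 genes thus passed in no comparison, and the 18 calls fell on 13 genes. Of the calls, 6 (1 each on Cd38, Cd52, Cd69 and Cd82, 2 on Cd302) held under all 9 alternatives. Some alternatives could not end these calls. All these genes had reads in enough cells to pass the stricter cell limit. For each call, a setting that leaves out cells dropped none from the groups compared. For Cd82 in E14.5 against E12.5 liver, that setting was AGM cells 1 to 16.

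**Figure D3:**
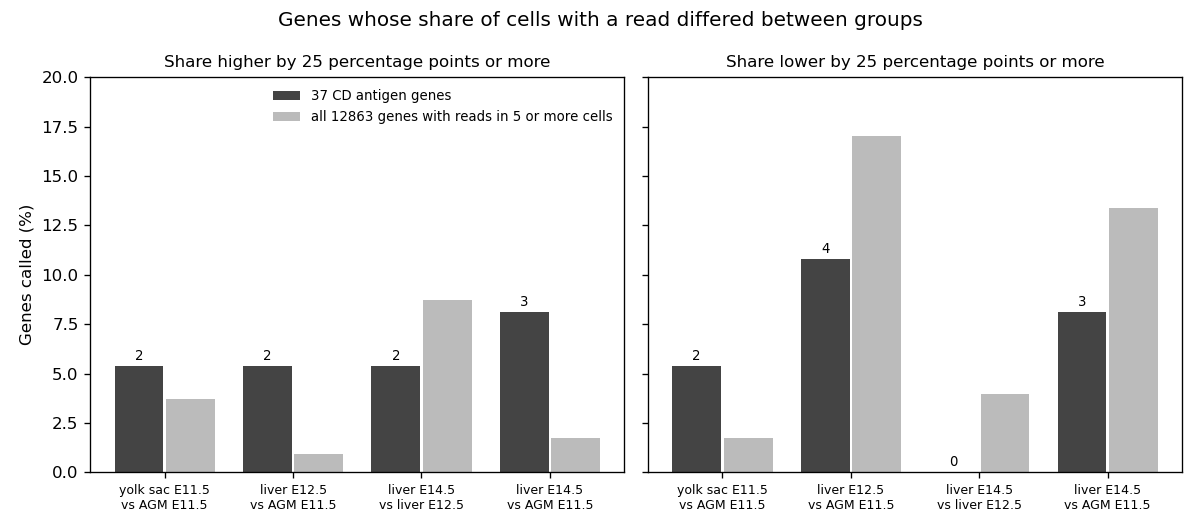
Percentage of genes (y axis) whose share of cells with a read was higher (left) or lower (right) by 25 percentage points or more in each of the 4 comparisons (x axis), for the 37 genes (dark bars, number of genes above) and all 12863 genes (light bars). The dark bars stand for 0 to 4 genes each, and the highest light bar is the 17% of all genes lower in E12.5 liver than in AGM.

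Some CD antigens whose genes carry other symbols were listed separately, and 48 of the 52 listed had reads in 5 or more cells. The list is a choice and does not cover all such antigens. It holds many endothelial and integrin genes and leaves out Cdh5, Procr and Slamf1. Its percentages therefore describe the list and not CD antigens at large. In yolk sac against AGM 2 were higher and 1 lower (4.17% and 2.08%, where 3.72% and 1.75% of all genes were). In E12.5 liver against AGM 0 were higher and 12 lower (25%, where 17% of all genes were lower). In E14.5 against E12.5 liver 2 were higher and 0 lower (4.17%, where 8.72% of all genes were higher). In E14.5 liver against AGM 2 were higher and 15 lower (4.17% and 31.2%, where 1.76% and 13.4% of all genes were). Itgb2, the common beta chain of leukocyte integrins, marked the yolk sac, with reads in 12 of 16 cells there against 11 of 48 in AGM, 3 of 16 in E12.5 and 5 of 16 in E14.5 liver. Selplg, the selectin ligand PSGL-1, marked E14.5 liver with 14 of 16 cells against 10 of 16 at E12.5, a margin of exactly 25 points, while its pooled level was 272.3 CPM at E14.5 and 329.9 CPM at E12.5. Pecam1, Kdr, Itga2b, Itga5, Itga6 and Itgb3, which are endothelial, megakaryocyte and integrin genes, marked the E11.5 stage as Cd38 did. These were 6 of the 48, where 3.94% of all genes marked it. Pecam1 (62.5% in yolk sac, 37.5% in E14.5 liver) and Itga6 (50% in yolk sac, 25% in each liver) had margins of exactly 25 points. Genes with other symbols were not run through the alternatives, under some of which the mark of Cd38 was lost.

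The number of the 37 genes with a read in a cell had a median of 13 among AGM cells (9 to 28), 13 among yolk sac cells (7 to 32) and 14 among E14.5 cells (10 to 17), and ranged from 4 to 25 in E12.5 cells. The cells with over 8500 genes had 16 to 32 of them, and E12.5 cell 8 had 4. The count moved with the number of all genes in the cell. With 690000 reads drawn from every cell, and 9 shallower cells dropped, the medians were 13, 12, 13 and 14 for AGM, yolk sac, E12.5 and E14.5. The groups thus overlapped in how many of these genes a cell held.

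**Figure D4:**
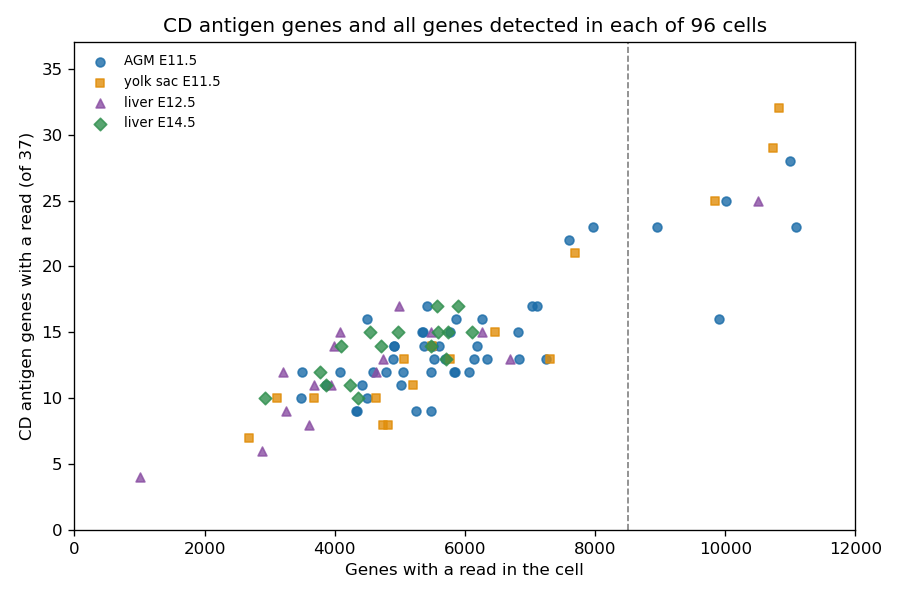
Number of the 37 genes with a read (y axis) against the number of all genes with a read (x axis) in each of the 96 cells, by group; the dashed line is at 8500 genes. The 9 cells to the right of the line hold 16 to 32 of the 37 genes, and E12.5 cell 8 at the lower left holds 4.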

How the data were processed

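Single cells were sorted into plates, cDNA was made with a SMART-Seq kit, and libraries took 12 PCR cycles, per the labels' protocols. The deposited values are raw read counts, whole numbers per gene with no molecular identifiers, in 1 table of 19949 rows, and all 96 columns were matched to a sample. The submitters' processing notes name FastQC, Trimmomatic 0.36, STAR, HTSeq and build mm10, with no role or order. Rows sharing a symbol (113) were summed, none of them a member. CPM, shares and log2 ratios of pooled CPM + 1 were computed here with Python 3.11.15, numpy 2.4.6, pandas 2.3.3 and scipy 1.17.1. The calculation was tested on simulated data. The members, lists and call size were chosen with earlier results of these data known. Named genes were the called and marking members, all tetraspanins, Cd47, Cd24a, Cd93, Cd52, and those at the 5-cell threshold; values of the other members were added to account for each. Gene positions are from GENCODE vM21. No cell was left out of the main values, and doublets were not called. Alternatives are thinned reads, 10 CPM for detection, reads in 10 or more cells, AGM cells 1 to 16, 2000 genes per cell, no deepest cells, no globin-rich liver cells, a call at 35 points and, chosen after seeing the data, no cells with over 8500 genes. For log2 ratios, the mean of the cells' CPM, median-of-ratios scaling, 10 CPM added and leaving out each cell in turn were also tried.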

Additional observations from a re-analysis of the deposited data

How the results depend on the processing

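With AGM cells 1 to 16 only, yolk sac against AGM had 6 members lower, E12.5 liver against AGM 1 higher and 9 lower with a median difference of -12.5 points, and E14.5 liver against AGM 1 higher and 9 lower, where 42.6% and 37.5% of all genes were lower in the livers, and 5 members marked a group or stage. At a call size of 35 points, yolk sac against AGM had 1 higher and 0 lower, E12.5 liver against AGM 0 and 2, E14.5 against E12.5 liver 1 higher, E14.5 liver against AGM 1 and 1, and 1 member (Cd69) marked a group. Without the cells with over 8500 genes, an alternative chosen after seeing the data, and also without the deepest cell of each group, yolk sac against AGM had 1 higher and E14.5 liver against AGM 5 higher. With thinned reads, E12.5 liver against AGM had 1 higher and E14.5 liver against AGM 6. With detection at 10 CPM, yolk sac against AGM had 1 higher, E14.5 against E12.5 liver 2 lower and E14.5 liver against AGM 5 lower. With at least 2000 genes per cell, E14.5 against E12.5 liver had 1 higher, and without globin-rich liver cells 4. The cause was not tested for any of these. Except for the lower counts in the livers with AGM cells 1 to 16, the percentages of all genes are not given with these counts. There they moved with the setting, from 17% to 42.6% at E12.5 and from 13.4% to 37.5% at E14.5. The counts therefore describe the settings and are not a result about the members. The mark of Cd82 was lost with AGM cells 1 to 16 and at 35 points, and that of Cd38 at 10 CPM, without the deepest cells, without globin-rich cells, without the cells with over 8500 genes and at 35 points. Other counts and medians, 91 in all, stayed within the same range. A share difference of a single gene counted as unchanged anywhere inside its main Newcombe interval, which is often wide. By that rule 704 did not move and 4 moved. Cd53 in E12.5 liver against AGM went from 25 points (-0.962 to 49.2) to 6.25 with AGM cells 1 to 16, inside its interval. The 704 include settings that left out no cell of the groups compared. They do not show that calls held, since only 6 of the 18 calls held under all 9 alternatives.

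Of the log2 ratios under these alternatives, 405 stayed close, 74 moved, and the 1 that changed sign among called members was that of Cd82 in E14.5 against E12.5 liver, at -0.06 without E14.5 cell 12 and 0.66 without E12.5 cell 7. Over all genes the median log2 ratio was -0.15 for yolk sac and -0.15 for E14.5 liver against AGM and -0.13 for E12.5 liver against AGM. No paired analysis was possible because the cell numbers only name wells and each group is 1 sample with no test. With 16 cells in a group, a count of 0 allows a share of up to 18.8% by the limit of 3 cells (20.6% by the exact interval), so the absence of a gene cannot be read from these groups.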

Other observations

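Of the 4 genes left out by name, only Cd48 reached 25 points in share, higher in each liver than in AGM. Of all genes, 0.933% were so at E12.5 and 1.76% at E14.5. Cd27, Cd34 and Cd44 reached it in no comparison. Cd48, a SLAM family antigen absent by gate from the E14.5 HSCs, had reads in 2 of 48 AGM cells (4.17%) and 4 of 16 yolk sac cells, with 5 of 16 at E12.5 and 6 of 16 at E14.5 (37.5%). Its pooled level was 0.365, 14.39 and 33.07 CPM in AGM, yolk sac and E12.5 cells, and had an interval of 98.7 to 107.5 CPM in E14.5 cells. Cd34, a sialomucin of progenitors and endothelium, was in 47 of 48 AGM and all 16 yolk sac cells, with 14 of 16 at E12.5 and 15 of 16 at E14.5, and its pooled level in that order was 1064, 999.4, 564.2 and 632.2 CPM. Cd27, a TNF receptor family member, was in 28, 10, 12 and 12 cells, with 74.47, 95.44, 133.3 and 134.8 CPM. Cd44, the hyaluronan receptor, was in 37, 14, 11 and 9 cells, with 67.2, 116.6, 55.21 and 37.31 CPM. Among CD antigens with other symbols, Flt3, a cytokine receptor of progenitors, was in 13 of 16 yolk sac cells against 22 of 48 AGM cells. It was named after its values were seen.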
